A study of Homo sapiens with 17 samples.

Results

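HSPB8 and 9 other heat-shock chaperone genes were examined by mRNA sequencing in SW480 cells, a line from a human colon carcinoma with the mutant p53 R273H (mutp53). The 10 genes were found by symbol among 26457 RefSeq genes. HSPB8 was chosen on its measured values, a large fall after mutp53 depletion at 16 h of TNF-α, so its values are given as a description with no test. The others, HSPB1, CRYAB, BAG3, DNAJB1, HSPA1A, HSPA1B, HSPA8, HSPH1 and HSF1, were listed with it by name and family, with earlier results of these data known, so the choice is not independent of them. Control cells carried a doxycycline-inducible short hairpin RNA against LacZ, and mutp53-depleted cells carried one against p53. Both stable lines were induced with doxycycline at 1 µg/ml, and each was collected before TNF-α (0 h, untreated) and after 16 h (treated) with TNF-α at 12.5 ng/ml. Each of the 4 groups is 1 sample in the labels and 2 columns, A and B, in the deposited table, which gives 8 libraries in all. That A and B are biological replicates is taken from the Methods of the study, and nothing in the labels shows separate cultures, so p-values measure the spread between these libraries only. As each hairpin is represented by its own stable line, differences between the lines and effects of the hairpin cannot be told apart.

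Heat-shock proteins are molecular chaperones that bind unfolded or partly folded proteins and limit their aggregation. The small heat-shock proteins HSPB8, HSPB1 and CRYAB hold unfolded clients without using ATP, whereas the HSP70 proteins HSPA1A, HSPA1B and HSPA8 refold them in cycles of ATP hydrolysis that are stimulated by the J-domain protein DNAJB1 and reset by exchange factors such as HSPH1 and BAG3. BAG3 also binds HSPB8, and together with HSP70 they route clients to autophagy, while HSF1 is the transcription factor that drives many chaperone genes under proteotoxic stress.

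HSF1 binds arrays of inverted short units, and the pairs GAANNTTC and TTCNNGAA, each its own reverse complement, were searched in RefSeq promoter windows (GRCh38.p14, 250 bases before to 50 after a start site). At least 1 pair lay in a window of 6 of the 8 members with an entry, compared with 16.2% of all 27305 genes counted likewise by any of their windows. Of all 35116 single windows 13.5% held a pair. Taken separately, GAANNTTC was present in 6.77% and TTCNNGAA in 7.74% of all windows. The pairs can overlap, and 3 units in a row were present in 0.49% of windows. The 4 windows below show the pair in HSPB8 and in members that were higher in mutp53-depleted cells, with every match in capitals, read 5′ to 3′ on the gene's strand.
HSPB8, chr12:119178681-119178980, plus strand: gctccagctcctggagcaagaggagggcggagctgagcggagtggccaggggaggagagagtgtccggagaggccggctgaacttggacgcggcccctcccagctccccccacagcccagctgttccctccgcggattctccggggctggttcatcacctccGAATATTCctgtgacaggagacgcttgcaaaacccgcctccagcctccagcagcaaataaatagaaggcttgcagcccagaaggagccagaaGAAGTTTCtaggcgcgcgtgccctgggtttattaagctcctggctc
HSPA1A, chr6:31815293-31815592, plus strand: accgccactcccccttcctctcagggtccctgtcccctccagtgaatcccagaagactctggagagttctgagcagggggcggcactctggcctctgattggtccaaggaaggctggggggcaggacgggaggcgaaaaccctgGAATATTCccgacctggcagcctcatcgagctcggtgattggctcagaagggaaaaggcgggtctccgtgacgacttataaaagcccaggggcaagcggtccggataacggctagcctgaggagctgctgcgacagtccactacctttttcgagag
HSPA8, chr11:123062087-123062386, minus strand: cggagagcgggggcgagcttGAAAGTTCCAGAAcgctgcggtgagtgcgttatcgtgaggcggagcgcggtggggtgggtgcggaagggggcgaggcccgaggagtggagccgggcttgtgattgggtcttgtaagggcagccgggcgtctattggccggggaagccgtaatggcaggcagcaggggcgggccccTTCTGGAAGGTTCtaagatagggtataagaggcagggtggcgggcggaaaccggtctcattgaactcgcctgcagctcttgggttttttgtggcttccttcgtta
DNAJB1, chr19:14518348-14518647, minus strand: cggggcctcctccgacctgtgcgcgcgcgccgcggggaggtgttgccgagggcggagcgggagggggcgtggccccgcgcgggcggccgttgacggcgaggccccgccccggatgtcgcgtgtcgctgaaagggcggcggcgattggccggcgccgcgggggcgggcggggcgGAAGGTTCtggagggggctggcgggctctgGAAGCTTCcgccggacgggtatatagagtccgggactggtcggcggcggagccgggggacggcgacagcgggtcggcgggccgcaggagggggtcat
HSPB8 held GAATATTC, which began 88 bases before the start site, and GAAGTTTC, which began at base 5 after it. HSPA1A held the identical letters GAATATTC, beginning 106 bases before its start, and HSPA1B held them beginning 105 bases before. HSPA8 was the member with 3 units in a row. The DNAJB1 window shown is 1 of 3 in the table, of which 2 held the pair. HSPB1 held GAAGGTTC, while the windows of BAG3 and HSPH1 held neither pair. The NF-κB consensus, searched on both strands, was present in a window of 7.09% of all genes and of 0 of the 8 members. These matches describe the letters only, and no binding was measured.

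The values analysed are normalized reads, meaning reads on the exons of a gene each multiplied by a library factor that sets every library to an equal total. Libraries held from 6108488 to 13809578 reads on genes, and 1 read was worth between 0.67 and 1.51 normalized reads. The NF-κB targets NFKBIA, TNFAIP3 and BIRC3 were higher after TNF-α in control cells by 3.78, 6.09 and 6.65 on the log2 scale. The TNF-α treatment was therefore visible in the libraries labelled with it. Of 10 colon epithelial markers 8 had reads, led by KRT8 in mean normalized reads and by KRT18 per kilobase of gene model. CDX1 and CEACAM5 were at 0. The summed epithelial markers were at 79069 and 74742 normalized reads in untreated controls and 62912 and 62379 in untreated mutp53-depleted cells, and at 62616 and 62740 against 50527 and 51102 at 16 h. Within that list 5 of the 8 genes read passed limma's adjusted p as lower after depletion at both times, ASCL2, CDH1, EPCAM, KRT18 and KRT8. AXIN2 and KRT19 passed as higher at both times and CDX2 as higher at 16 h. Over all genes, 25.2% passed as lower and 27.3% as higher at 0 h, and 26.5% as lower and 24.9% as higher at 16 h. EPCAM, an adhesion protein of epithelia, averaged 5831 in control and 2385 in mutp53-depleted cells at 0 h, and AXIN2, a target of Wnt signalling, 7062 and 9675. Markers of other cell types were partly read. PTPRC of immune cells, KDR of endothelial cells, COL3A1 and DCN of fibroblasts, and MYOD1 and MYOG of skeletal muscle were at 0 in all libraries, while other genes of the same lists had reads. The fibroblast sum, led by COL1A1 with 3 of 5 genes read, was higher in untreated mutp53-depleted cells (158 and 176) than in untreated controls (38.5 and 39.4), and was 56.2 and 59.2 against 31.9 and 28.5 at 16 h. The endothelial sum, led by VWF with 3 of 4 genes read, was 28.8 and 21.9 in mutp53-depleted cells against 7.3 and 6.1 in controls at 0 h, and 17.6 and 28.4 against 6.8 and 5.7 at 16 h. The immune sum, led by CD68 with 5 of 6 genes read, was 69.0 and 72.7 against 59.5 and 45.4 at 0 h and 85.5 and 85.2 against 59.0 and 55.5 at 16 h, and its genes differed in direction. CD68 averaged 44.1 in mutp53-depleted against 20.04 in control cells at 0 h and 73.5 against 43.3 at 16 h, whereas CD14 averaged 14.2 against 28.0 and 6.24 against 11.3. LYZ averaged 11.8 against 2.96 at 0 h and 5.18 against 2.16 at 16 h. By limma's adjusted p CD68 passed as higher at both times and LYZ at 0 h, while no immune gene passed as lower. The muscle sum, led by DES with 2 of 4 genes read, was 22.1 and 26.0 against 19.6 and 24.2 at 0 h and 10.1 and 8.6 against 5.8 and 1.4 at 16 h. Several of these markers thus differed between the lines as the members did, and their part in the results was not tested.

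HSPB8 (NM_014365, hg19 chr12:119616595-119632551, plus strand) was scarce in 3 of the groups and higher in the other. In control cells it was at 4.35 and 4.54 normalized reads at 0 h and at 93.8 and 93.9 at 16 h of TNF-α. In mutp53-depleted cells it was at 2.01 and 2.74 at 0 h and at 0.84 and 1.23 at 16 h. Treated controls thus stood apart from the other 6 libraries, which did not exceed 4.54. These values rest on 9 reads in untreated and 163 in treated controls, and on 5 reads in untreated and 2 in treated mutp53-depleted cells. After TNF-α, HSPB8 was 21.2-fold higher in control cells (95% exact counting interval 10.9 to 47.3). At 16 h it was 94.0-fold lower in mutp53-depleted than in control cells (interval 25.6 to 783). At 0 h the ratio of mutp53-depleted to control cells was 0.510 (interval 0.134 to 1.69), and in mutp53-depleted cells the ratio of 16 h to 0 h was 0.444 (interval 0.0423 to 2.71), both on fewer than 10 reads a group. The intervals describe counting error only and are no test of a gene chosen on these values. In bulk RNA, fewer cells that express a gene and less RNA per cell cannot be told apart.

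**Figure D1:**
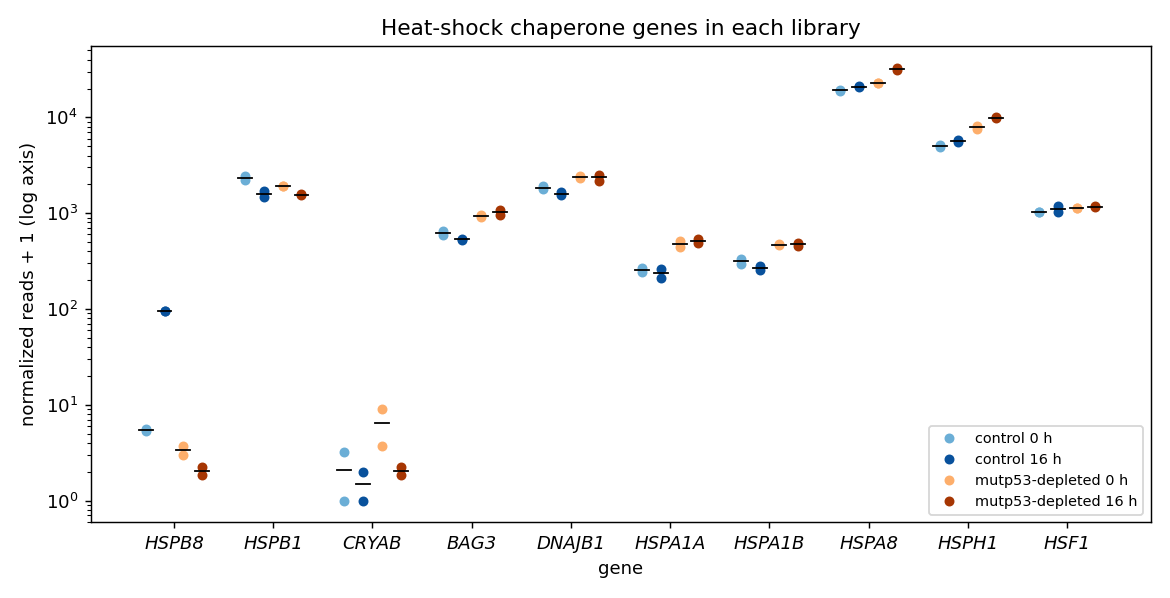
Normalized reads plus 1 (log axis) of the 10 genes in each of the 8 libraries, with dots for libraries, black lines for group means and colours for groups. HSPB8 is high in the pair of treated control libraries (93.8 and 93.9) and at most 4.54 elsewhere, whereas BAG3, DNAJB1, HSPA1A, HSPA1B, HSPA8 and HSPH1 are higher in the mutp53-depleted libraries.

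Likeness to HSPB8 was measured by Pearson's r of log2(normalized reads + 1) over the 8 libraries, among 1675 other genes whose group means spanned at least 2 on the log2 scale. The 5 most alike were SLC5A2 (r = 0.989), WFDC10B (0.988), SPON1 (0.965), MPZL2 (0.963) and IGFL1 (0.949). Since HSPB8 is high in 1 group only, r describes mainly the distance of that group from the rest. MPZL2, an adhesion protein of the immunoglobulin family, was the abundant gene of the 5, at 2864 and 2813 normalized reads in untreated controls, 7665 and 6927 in treated controls, 2140 and 1618 in untreated mutp53-depleted cells and 1993 and 1480 in treated ones. Its treated control libraries exceeded all others, as for HSPB8, but it was well expressed in every group. IGFL1 averaged 48.0 normalized reads in treated controls and at most 0.62 in any other group. SLC5A2, WFDC10B and SPON1 were also highest in treated controls, at means of 17.7, 17.3 and 15.3, but on only 10 to 21 reads a library. Each had at most 4 reads in any other library, and SPON1 was at 0 in the 4 mutp53-depleted libraries.

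The fall of HSPB8 was set against its chromosomal surroundings. Among HSPB8 and its 50 nearest tested genes, depletion came with a median log2 change of 0.49 at 0 h and the same, 0.49, at 16 h. Medians over all genes were 0.03 and -0.01, so genes around HSPB8 were on the whole higher in mutp53-depleted cells. At limma's adjusted p alone 27.3% of all genes were higher and 25.2% lower at 0 h, and 24.9% higher and 26.5% lower at 16 h. PRKAB1, the next tested gene, was higher by 0.94 ± 0.11 (SE; limma adjusted p = 1.2e-06) at 0 h and by 0.97 ± 0.11 (adjusted p = 7.4e-07) at 16 h. On the other side, SUDS3 was higher by 0.42 ± 0.11 (adjusted p = 0.004) and 0.54 ± 0.11 (adjusted p = 0.00056), and PEBP1 by 0.49 ± 0.08 (adjusted p = 4.3e-05) and 0.47 ± 0.08 (adjusted p = 6.6e-05). TAOK3 and CIT passed at 0 h only, with 0.45 and 0.49, and had 0.28 and 0.18 at 16 h. CCDC64 fell by 0.93 at 16 h (adjusted p = 6.5e-06) and had -0.19 at 0 h. In control cells TNF-α left 5 of these 6 genes short of an adjusted p of 0.05, and SUDS3 fell by 0.40 (adjusted p = 0.012). Most genes fell short there, since 11.1% of all genes passed as higher and 15.2% as lower. In mutp53-depleted cells CCDC64 fell by 0.60 (adjusted p = 0.0016) and CIT by 0.30 (adjusted p = 0.016) with TNF-α, and the other 4 did not pass. In that comparison 9.8% of all genes passed as higher and 16.9% as lower.

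**Figure D2:**
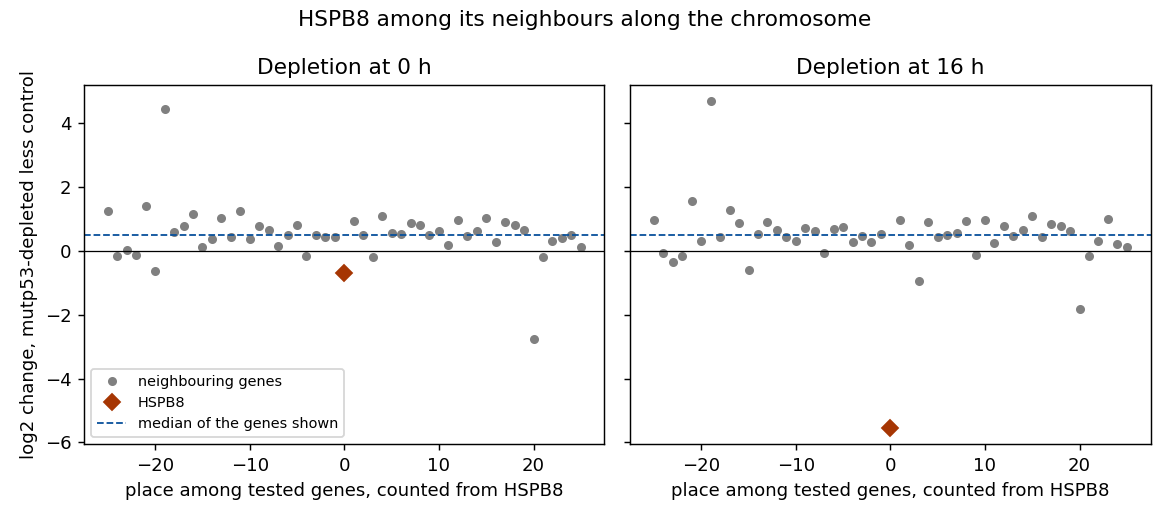
Log2 change after mutp53 depletion (vertical axis) of HSPB8 and its 50 nearest tested genes, in gene order along the chromosome (horizontal axis), at 0 h and 16 h. The dashed line is their median, 0.49 at both times, and HSPB8 lies below it at 0 h (-0.70) and at 16 h (-5.55).

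The remaining members were compared at each time between mutp53-depleted and control cells with limma on log2(normalized reads + 1), which fitted the 14800 genes that averaged 2.5 or more normalized reads. Of the 9 members other than HSPB8, 8 passed that filter and CRYAB did not. The HSP70 genes, their partners BAG3 and DNAJB1 and the exchange factor HSPH1 were higher in mutp53-depleted cells at both times. HSPA1A, the stress-inducible HSP70, was at 268 and 242 normalized reads in untreated controls and at 262 and 211 at 16 h. In mutp53-depleted cells it was at 445 and 514 at 0 h and at 483 and 543 at 16 h, so the 4 mutp53-depleted libraries lay above the 4 control libraries. It rose by 0.91 ± 0.12 (SE; adjusted p = 4.3e-06) at 0 h and by 1.12 ± 0.12 (adjusted p = 3.2e-07) at 16 h. Its near-identical copy HSPA1B was at 335 and 291 in untreated controls, 279 and 253 in treated controls, 470 and 468 in untreated mutp53-depleted cells and 449 and 492 in treated ones. The libraries of the lines again did not overlap, and the differences were 0.59 ± 0.10 (adjusted p = 0.00011) and 0.82 ± 0.10 (adjusted p = 2.7e-06).

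BAG3, the co-chaperone that binds HSPB8, was at 646 and 592 normalized reads in untreated controls and at 541 and 521 at 16 h. In mutp53-depleted cells it was at 901 and 967 at 0 h and at 967 and 1074 at 16 h. Every mutp53-depleted library thus exceeded every control library. The group means differed by 0.59 ± 0.08 on the log2 scale (adjusted p = 1e-05) at 0 h and 0.94 ± 0.08 (adjusted p = 3.4e-08) at 16 h. BAG3 and its partner HSPB8 therefore stood in opposite order in the lines at 16 h. HSPH1, an HSP110 protein, was at 5062 ± 151 (SD, n = 2) and 5725 ± 206 in controls at 0 h and 16 h, against 7921 ± 382 and 9933 ± 198 in mutp53-depleted cells. It rose by 0.65 ± 0.07 (SE; adjusted p = 3.4e-07) at 0 h and 0.80 ± 0.07 (adjusted p = 2.2e-08) at 16 h. DNAJB1 was at 1848 ± 85.8 and 1603 ± 84.3 in controls at 0 h and 16 h and at 2404 ± 81.4 and 2360 ± 238 in mutp53-depleted cells. Its differences were 0.38 ± 0.08 (adjusted p = 0.00048) and 0.55 ± 0.08 (adjusted p = 9.4e-06), again with no overlap between the lines. HSPA8, the constitutive HSP70, was at 19140 ± 401 and 20863 ± 287 in controls at 0 h and 16 h and at 22827 ± 179 and 31987 ± 1584 in mutp53-depleted cells. It rose by 0.25 ± 0.08 (adjusted p = 0.0082) at 0 h and by 0.62 ± 0.08 (adjusted p = 1.8e-06) at 16 h, the 0 h difference being the smallest of these 6 genes. Without replicate A of untreated mutp53-depleted cells the adjusted p of that difference was 0.063, and without replicate B it was 0.087. With the shift of its neighbours removed the difference was 0.18 (adjusted p = 0.067).

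**Figure D3:**
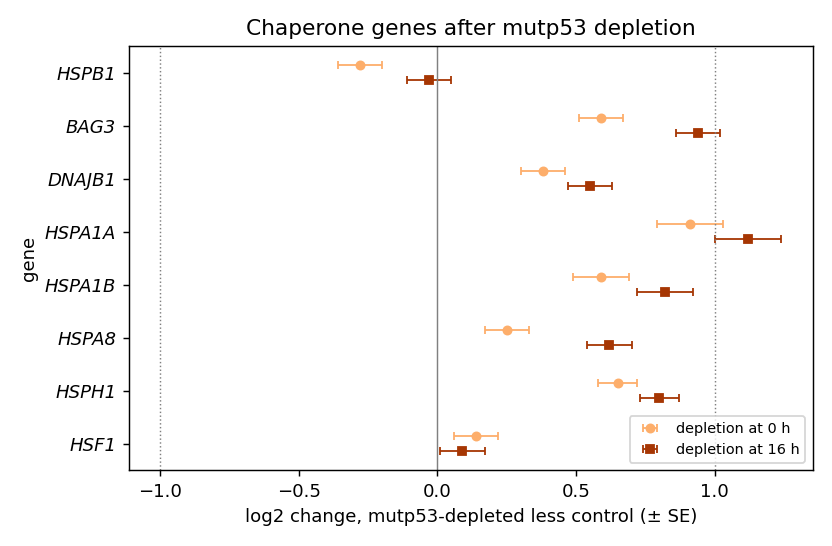
Log2 change between mutp53-depleted and control cells (horizontal axis, with SE) of the 8 tested members other than HSPB8, at 0 h (circles) and 16 h (squares), with dotted lines at a change of 2-fold. The 6 genes HSPH1, HSPA8, HSPA1B, HSPA1A, DNAJB1 and BAG3 lie right of 0 at both times, from 0.25 to 1.12, while HSPB1 lies at -0.28 and -0.03.

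At an adjusted p under 0.05 and a change of at least 2-fold, limma called 0 of the 8 members after depletion at 0 h, where 15.4% of all genes were called. At an unadjusted p under 0.05 alone 7 of the 8 passed, as did 57.6% of all genes, and edgeR and DESeq2 on the recovered reads also called 0 members, against 15.8% and 13.2% of all genes. At 16 h 1 of 8 was called, HSPA1A, against 15.2% of all genes, a share near the background. Without replicate B of treated controls the change of HSPA1A was 0.96 and the count was 0, and with the neighbours' shift removed BAG3 was called as well (1.06, adjusted p = 1.8e-08). At the adjusted p alone, a rule added after the data were seen, 6 of 8 (75%) were higher and 1 of 8 (12.5%) lower at 0 h, compared with 27.3% and 25.2% of all genes. At 16 h 6 of 8 (75%) were higher and 0 lower, compared with 24.9% and 26.5% of all genes. The median log2 change of the 8 members was 0.48 at 0 h and 0.71 at 16 h, beside 0.03 and -0.01 over all genes. The comparisons at 0 h and 16 h use different libraries of the same lines.

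HSPB1, the most abundant small heat-shock protein here, was not higher in mutp53-depleted cells on the measured scale. It was at 2444 and 2215 normalized reads in untreated controls and at 1721 and 1480 at 16 h. In mutp53-depleted cells it was at 1913 and 1906 at 0 h and at 1543 and 1590 at 16 h. The lines did not overlap at 0 h, where HSPB1 fell by 0.28 ± 0.08 (SE; adjusted p = 0.0052), and overlapped at 16 h (-0.03 ± 0.08, adjusted p = 0.8). Without replicate A of untreated controls the 0 h difference was similar, -0.21, with an adjusted p of 0.073. The medians of its 51 neighbouring genes were -0.55 at 0 h and -0.53 at 16 h, and with those shifts removed HSPB1 was higher at both times, by 0.26 (adjusted p = 0.011) and 0.51 (adjusted p = 4.8e-05). HSF1, the regulator, was at 1038 and 1039 in untreated controls, 1197 and 1020 in treated controls, 1143 and 1145 in untreated mutp53-depleted cells and 1175 and 1172 in treated ones. Its differences, 0.14 ± 0.08 (adjusted p = 0.15) and 0.09 ± 0.08 (adjusted p = 0.38), did not pass, except at 16 h without replicate A of treated controls (0.20, adjusted p = 0.046), although its neighbours had medians of -0.74 and -0.68. With those shifts removed HSF1 was higher by 0.88 (adjusted p = 7.6e-08) and 0.77 (adjusted p = 3.5e-07). Neighbour medians of BAG3, DNAJB1, HSPA1A, HSPA1B, HSPA8 and HSPH1 lay between -0.13 and 0.15. CRYAB, the remaining small heat-shock protein, was at 2.18 and 0 normalized reads in untreated controls, 0.97 and 0 in treated controls, 8.04 and 2.74 in untreated mutp53-depleted cells and 0.84 and 1.23 in treated ones. At 0 h 14 reads against 3 gave a ratio of 4.28 (95% exact counting interval 1.20 to 23.2). Of the 14 reads 12 came from replicate A of untreated mutp53-depleted cells, and without it 2 reads against 3 were too few for a fold. Without replicate B of untreated controls the ratio was 2.89 (interval 0.808 to 15.7), and without replicate A those controls had 0 reads. With TNF-α in mutp53-depleted cells 2 reads against 14 gave a ratio of 0.158 (interval 0.0175 to 0.690), which rests on the same library, since 2 against 2 remained without it. Without replicate A of the treated cells it was 0.196 (interval 0.00463 to 1.29). At 16 h between the lines, and with TNF-α in control cells, the reads were too few for a fold.

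Treatment with TNF-α for 16 h moved few of the members. In control cells limma called 0 of 8 at 2-fold, where 7.24% of all genes were called, and edgeR and DESeq2 also called 0, against 7.27% and 5.44% of all genes. An unadjusted p under 0.05 was reached by 5 of 8, and by 36.6% of all genes. At the adjusted p alone 0 of 8 were higher and 1 of 8 lower, compared with 11.1% and 15.2% of all genes. The lower gene was HSPB1, which fell by 0.54 ± 0.08 (SE; adjusted p = 3.5e-05) in both libraries. HSPH1 was close to the threshold at 0.18 ± 0.07 (adjusted p = 0.066) and passed with edgeR (0.22, adjusted p = 0.025) and DESeq2 (0.22, adjusted p = 0.016). In mutp53-depleted cells 0 of 8 were called at 2-fold by limma, edgeR and DESeq2, against 6.36%, 6.34% and 4.6% of all genes. An unadjusted p under 0.05 was reached by 3 of 8, and by 37.5% of all genes. At the adjusted p alone 2 of 8 were higher and 1 of 8 lower, compared with 9.8% and 16.9% of all genes. HSPA8 rose by 0.49 ± 0.08 (adjusted p = 8.3e-05) and HSPH1 by 0.33 ± 0.07 (adjusted p = 0.0015), and HSPB1 fell by 0.29 ± 0.08 (adjusted p = 0.011). Without replicate A of untreated mutp53-depleted cells the adjusted p of HSPH1 was 0.052 and that of HSPB1 0.077. HSPB1 also missed the threshold without replicate B of those cells (adjusted p = 0.067), without replicate A of treated mutp53-depleted cells (0.075) and with DESeq2 (0.079). BAG3, DNAJB1, HSPA1A, HSPA1B and HSF1 passed in neither line, with log2 changes from -0.23 to 0.13. With the replicate letter, A or B, as a block DNAJB1 passed as lower in control cells (-0.20, limma adjusted p = 0.023). With the shift of its neighbours removed BAG3 passed in mutp53-depleted cells (0.23, adjusted p = 0.046), which made 3 members higher there.

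Whether the effect of depletion differed between 16 h and 0 h was tested as an interaction, in which 2.86% of all genes passed an adjusted p of 0.05. Of the 8 members limma called 0, with 3 at an unadjusted p under 0.05, which 13.5% of all genes reached. edgeR and DESeq2 each called 1, against 3.08% and 1.98% of all genes. That gene was HSPA8, with 0.36 ± 0.11 (SE; adjusted p = 0.083) in limma, 0.38 (adjusted p = 0.025) in edgeR and 0.38 (adjusted p = 0.0038) in DESeq2. BAG3 followed with 0.35 ± 0.12 (adjusted p = 0.15), and passed with the shift of its neighbours removed (0.45, adjusted p = 0.046). The differences between times for the other 6 tested members lay between -0.05 and 0.26.

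Per kilobase of gene model, the members' mean levels over the 8 libraries ranged over several orders of magnitude. HSPA8 had the highest, at 9679 normalized reads per kilobase, followed by HSPB1 (2075), HSPH1 (1341), DNAJB1 (854), HSF1 (522) and BAG3 (303). In treated mutp53-depleted cells HSPH1 (1860) stood above HSPB1 (1756). HSPA1A (153) and HSPA1B (151) lay beside each other and within the spread of their libraries. HSPB8 (12.7) and CRYAB (2.06) were lowest, in that order only through the control libraries, since in mutp53-depleted cells CRYAB was at 5.56 and HSPB8 at 1.19 at 0 h and at 1.07 and 0.52 at 16 h, on few reads. In treated controls HSPB8 reached 47.0 per kilobase, below HSPA1A at 97.4 and BAG3 at 207 in the same libraries. HSPA1A and HSPA1B are near-identical copies, and each is counted as a member above. The deposited annotation lists 5 copies for each of them and 1 for every other member. How this bears on their levels was not tested. Of the stretches of 50 bases, the length of a read, in the HSPA1A transcript 75.1% also occurred in HSPA1B, and 71.6% of those of HSPA1B in HSPA1A, so how their reads were divided is uncertain. HSPA1L shared 61 stretches with each of them, 2.25% of its own, while HSPA8 and HSPA6 shared 0 with either.

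The wider families were described by lists drawn up with earlier results of these data known. Heat-inducible HSF1 targets comprised 25 genes on 13 chromosomes, 8 of them members, and 24 passed the filter. HSPA6 passed only through mutp53-depleted libraries and was left out of the counts, a choice made after the data were seen. At the adjusted p alone 19 of 23 (82.6%) were higher and 1 (4.35%) lower at 0 h, compared with 27.3% and 25.2% of all genes, and their median log2 change was 0.42 beside 0.03 over all genes. At 16 h 20 of 23 (87%) were higher and 0 lower, compared with 24.9% and 26.5% of all genes, with a median of 0.43 beside -0.01. The same 19 genes were higher at both times. Among the 16 of these genes that are not members, 13 (81.2%) were higher at 0 h and 14 (87.5%) at 16 h, with medians of 0.42 and 0.39. FKBP4, an HSP90 co-chaperone, had 0.97 ± 0.07 (SE) at 0 h and was called at 16 h with 1.13 ± 0.07 (adjusted p = 1.8e-10), though its neighbours also had medians of 0.91 and 0.83 and it was not called with that shift removed. HSPA6, a strictly inducible HSP70, had 1 read in untreated controls and 11 in untreated mutp53-depleted cells, a ratio of 10.1 (95% exact counting interval 1.47 to 434). Without replicate A of untreated controls that ratio was 3.27 (interval 0.475 to 141). At 16 h it had 1 and 20 reads, a ratio of 17.4 (interval 2.77 to 719), or 10.3 (interval 1.65 to 428) without replicate B of treated controls, all on few reads and given with no test. UBB (-0.13 and -0.08) and HSP90AB1 (0.14 and 0.12) passed at neither time. After TNF-α 5 of 23 (21.7%) were higher and 1 (4.35%) lower in control cells, compared with 11.1% and 15.2% of all genes. In mutp53-depleted cells 10 (43.5%) were higher and 1 (4.35%) lower, compared with 9.8% and 16.9% of all genes.

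**Figure D4:**
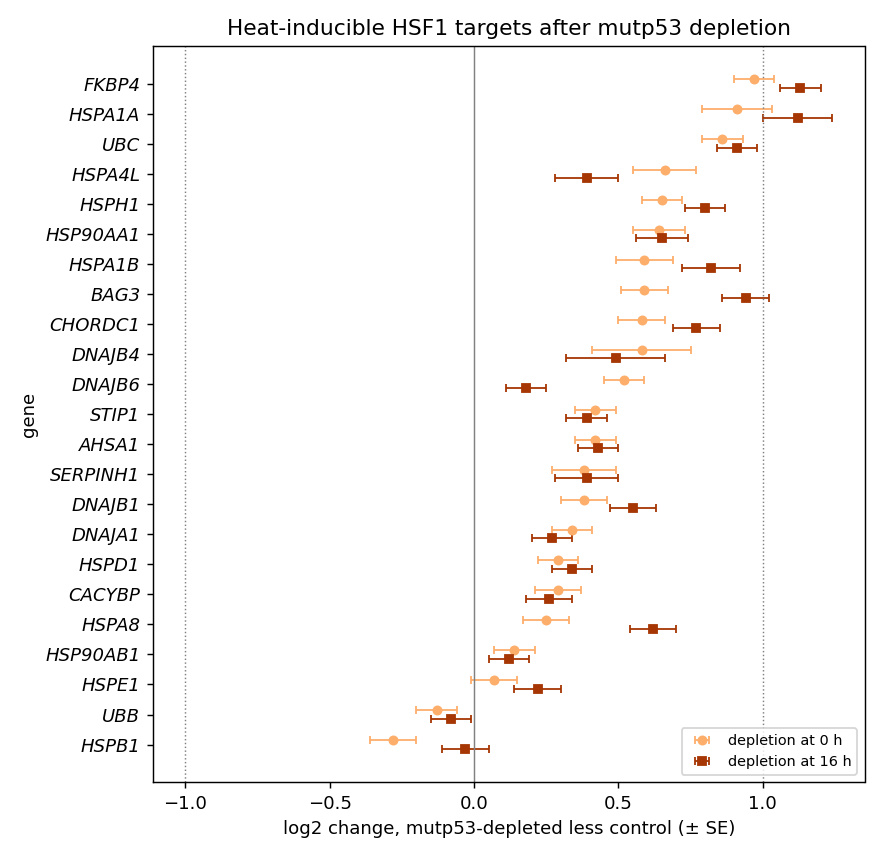
Log2 change between mutp53-depleted and control cells (horizontal axis, with SE) of the 23 heat-inducible HSF1 targets counted, HSPA6 left out, ordered by the change at 0 h, at 0 h (circles) and 16 h (squares), with dotted lines at a change of 2-fold. All but UBB and HSPB1 lie right of 0 at both times.

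Other chaperone families, some of whose genes are also heat-inducible targets, were counted at the adjusted p alone, at which 27.3% of all genes were higher and 25.2% lower at 0 h, and 24.9% higher and 26.5% lower at 16 h. In the HSP70 and HSP110 family without HSPA6, 9 of 14 tested genes (64.3%) were higher and 5 (35.7%) lower at 0 h, and 8 (57.1%) higher and 5 (35.7%) lower at 16 h. HSPA12A, a distant HSP70, fell by 1.26 ± 0.08 (SE; adjusted p = 3.1e-10) and 1.50 ± 0.08 (adjusted p = 3.1e-11), and HSPA1L, at lower levels than the HSPA1A and HSPA1B with which it shares stretches, rose by 1.15 ± 0.41 (adjusted p = 0.024) at 0 h. How far its reads belong to those genes was not tested. edgeR gave 0.91 (adjusted p = 0.037) for HSPA1L and DESeq2 0.98 (adjusted p = 0.15), so neither called it, nor was it called without replicate B of untreated controls or replicate A of untreated mutp53-depleted cells. Among HSP90 and its co-chaperones 9 of 16 (56.2%) were higher and 2 (12.5%) lower at either time. BAG proteins and other exchange factors had 7 of 10 (70%) higher and 2 (20%) lower at 0 h and 6 (60%) higher and 2 (20%) lower at 16 h. Chaperonins and prefoldin had 11 of 17 (64.7%) higher and 2 (11.8%) lower at 0 h and 8 (47.1%) higher and 3 (17.6%) lower at 16 h, with CCT6B falling by 1.62 ± 0.56 (adjusted p = 0.022) at 16 h, which was not called by DESeq2 (adjusted p = 0.11), without either treated control library or without replicate A of treated mutp53-depleted cells. Of the J-domain proteins 11 of 38 (28.9%) were higher and 7 (18.4%) lower at 0 h, and 14 (36.8%) higher and 7 (18.4%) lower at 16 h. DNAJC22 fell by 1.04 ± 0.13 (adjusted p = 9.2e-06) after TNF-α in control cells, and by 0.99 with edgeR and DESeq2, short of 2-fold, as it was without replicate A of untreated or replicate B of treated controls. In the list of heat-shock factors and HSBP1, 2 of 4 tested genes, HSF2 and HSBP1, were higher and 1 was lower at 0 h, and 0 higher and 1 lower at 16 h. At 2-fold 1 of 4 (25%) was called at either time, against 15.4% and 15.2% of all genes. This was HSF4, falling by 1.20 ± 0.24 (adjusted p = 0.00044) and 1.39 ± 0.24 (adjusted p = 0.0001), and its 0 h call was lost without replicate B of the untreated mutp53-depleted cells and with the neighbours' shift removed. Of 10 genes listed by symbol as small heat-shock proteins 3 passed the filter, HSPB8, HSPB1 and HSPB11. HSPB8 averaged 93.8 in treated controls and at most 4.44 in any other group. HSPB11, listed for its symbol only, had -0.13 and -0.15 after depletion.

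ER chaperones and unfolded protein response genes, which include HSPA5 and HYOU1 of the HSP70 family, had 13 of 23 (56.5%) lower and 6 (26.1%) higher at 0 h, compared with 25.2% and 27.3% of all genes. At 16 h 13 (56.5%) were lower and 7 (30.4%) higher, compared with 26.5% and 24.9%, so that the share of higher genes was near that of all genes at both times. CRELD2 fell by 1.47 ± 0.11 (SE; adjusted p = 3.9e-09) and 1.17 ± 0.11 (adjusted p = 6.4e-08), and PDIA4 by 1.26 ± 0.11 (adjusted p = 1.8e-08) and 1.20 ± 0.11 (adjusted p = 3.3e-08). PDIA4 at both times and CRELD2 at 16 h were not called with their neighbours' shift removed. DDIT3, a stress-induced transcription factor, rose by 2.08 ± 0.12 (adjusted p = 1.1e-10) and 2.07 ± 0.12 (adjusted p = 1.1e-10). PPP1R15A rose after TNF-α by 1.03 ± 0.07 (adjusted p = 2.1e-09) in control and 1.39 ± 0.07 (adjusted p = 6.8e-11) in mutp53-depleted cells.

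Genes listed for chaperone-assisted selective autophagy, the route served by HSPB8 and BAG3, were more often higher than lower in mutp53-depleted cells. The list is broad and also holds filamin clients, EIF2AK1 and TARDBP, which are not components of the route, so its counts do not describe the route alone. Without HSPB8, 7 of 12 (58.3%) were higher and 2 (16.7%) lower at 0 h, compared with 27.3% and 25.2% of all genes. The members BAG3 and HSPA8, described above, belong to this list and are counted among its higher genes at both times. At 16 h 8 (66.7%) were higher and 2 (16.7%) lower, compared with 24.9% and 26.5%. Counted among the higher genes at 16 h, NBR1 had 0.22 and SQSTM1 0.21 (limma adjusted p = 0.02 for each). With the shift of its neighbours removed NBR1 passed as lower instead (-0.23, adjusted p = 0.018). Without replicate A of treated controls the change of NBR1 was 0.14 and that of SQSTM1 0.15. FLNC, a filamin client of BAG3, rose by 2.32 ± 0.32 (SE; adjusted p = 8.7e-06) and 2.27 ± 0.32 (adjusted p = 1.1e-05). EIF2AK1 fell by 1.15 ± 0.07 at 0 h (adjusted p = 2.5e-10) and at 16 h (adjusted p = 2.3e-10), with neighbour medians of -0.89 and -0.86, and was not called with them removed. SYNPO rose by 1.39 ± 0.56 (adjusted p = 0.046) at 16 h and fell by 1.61 ± 0.56 (adjusted p = 0.042) after TNF-α in control cells. Neither SYNPO difference was called by edgeR (adjusted p = 0.096 and 0.098) or DESeq2 (adjusted p = 0.26 and 0.29). The first was lost on leaving out any library but replicate A of treated controls. The second was lost without either untreated control library, replicate B of treated controls or replicate B of either mutp53-depleted group. The autophagy receptor SQSTM1 was at 3625 and 3866 normalized reads in untreated controls and at 12007 and 13049 at 16 h. In mutp53-depleted cells it was at 6447 and 6439 at 0 h and at 14464 and 14393 at 16 h. Its mutp53-depleted libraries lay above the control libraries of the same time, and TNF-α raised it by 1.74 ± 0.07 (adjusted p = 1.9e-12) in control and 1.16 ± 0.07 (adjusted p = 8.2e-10) in mutp53-depleted cells.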

How the data were processed

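The mRNA-seq values came from 8 libraries, columns A and B of each of 4 groups, which the labels list as 1 sample a group. Per the paper's Methods, strand-specific poly(A) libraries were sequenced as single-end 50-base reads, mapped with STAR and compared with edgeR. HOMER is named in the submitters' processing notes. The authors deposited a signal for each gene, normalized reads, which are whole reads times a factor per library, and 100% of values came out whole within 0.1 read. The authors also deposited log2 fold changes, p-values and adjusted p-values of 4 comparisons made with edgeR, which were not used. The table's coordinates are hg19, whereas the Methods name hg38, and promoters are RefSeq sequences of GRCh38.p14. Gene length in the table, deposited by the authors, gave levels per kilobase.

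log2(normalized reads + 1) was fitted by lmFit, contrasts.fit and eBayes (with trend) of limma 3.58.1, under R 4.3.3, for genes averaging 2.5 or more, with Benjamini-Hochberg adjustment over all 14800 genes. Fold changes are on that scale, which understates those of low genes. Genes were called at an adjusted p under 0.05 and a change of at least 2-fold, whereas the interaction used no minimum change. Counting intervals were exact conditional binomial. The method was tested on simulated data. The members and lists were chosen with earlier results of these data known. Named genes were the members, NFKBIA, TNFAIP3, BIRC3, up to 3 called genes in each direction per list and comparison, the 5 genes most like HSPB8 and 3 tested genes on each side of it. A further result that this rule gives is not reported here, for a reason unrelated to its value. UBB, HSP90AB1, HSPB11, NBR1, HSPA6 and single cell type markers were named after their values were seen.

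Alternatives were median ratio scaling, no filter, a filter at 10, pseudocounts of 0.1 and 5, the replicate letter as a block, edgeR 4.0.16 and DESeq2 1.42.0 on recovered reads, leaving out each library (also from counting ratios of CRYAB and HSPA6, added after the data were seen), and removing the median of 51 neighbouring genes from mutp53-depleted libraries. Calls at the adjusted p alone, the NF-κB search and the comparison of HSP70 transcripts (GENCODE) were added after the data were seen. Protein identity was not run. Tables were made in Python 3.11.15 with pandas 2.3.3, numpy 2.4.6 and scipy 1.17.1, and plots with matplotlib 3.10.9. ChIP-seq and GRO-seq were not analysed here.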

Additional observations from a re-analysis of the deposited data

Results flagged for a closer look

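HSPB8 was flagged because both control libraries were at higher values at 16 h than at 0 h, while the values of both mutp53-depleted libraries were lower at 16 h. Its mean was 89.4 normalized reads higher at 16 h than at 0 h in control cells. In mutp53-depleted cells the means of 2.38 at 0 h and 1.03 at 16 h rest on 5 and 2 reads (ratio 0.444, 95% exact counting interval 0.0423 to 2.71). The difference was not tested, since the gene was chosen for it.

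In the other genes the effect of TNF-α differed between the lines by the interaction in limma. The NF-κB targets had smaller rises on the log2 scale in mutp53-depleted cells, from higher levels at 0 h. NFKBIA had an interaction of -1.43 (log2; adjusted p = 2.6e-05), TNFAIP3 of -1.95 (adjusted p = 0.011) and BIRC3 of -2.84 (adjusted p = 1.5e-05). At 0 h they were higher in mutp53-depleted cells by 0.78 (adjusted p = 5.4e-06), 1.32 (adjusted p = 0.00089) and 3.86 (adjusted p = 2.9e-11). The TNFAIP3 values at 0 h rest on unlike libraries, at 44.2 and 16.45 normalized reads in mutp53-depleted and 8.71 and 12.1 in control cells. Without replicate A of the untreated mutp53-depleted cells its difference was 0.63 (adjusted p = 0.026) and its interaction -1.26 (adjusted p = 0.029), and without replicate B they were 2 (adjusted p = 5.3e-07) and -2.63 (adjusted p = 2.1e-05). That interaction did not pass without replicate A of untreated controls (adjusted p = 0.07), without replicate A or B of treated controls (0.066 and 0.062) or with no filter (0.053). In normalized reads BIRC3 rose by more in mutp53-depleted cells, from a mean of 182 to 2566, than in control cells, from 12.3 to 1270, and it was still higher at 16 h by 1.02 (adjusted p = 0.00027). At 16 h NFKBIA was lower in mutp53-depleted cells by the log2 difference of -0.65 (adjusted p = 4.4e-05), and TNFAIP3 had -0.63 (adjusted p = 0.078), which passed with edgeR (-0.64, adjusted p = 4.1e-05), with a pseudocount of 5 (0.042) and without replicate A or B of untreated mutp53-depleted cells (0.0071 and 0.0046). Of the 12 tested genes other than HSPB8 in the broad autophagy list, 2 (16.7%) passed, compared with 2.86% of all genes. edgeR and DESeq2 each gave 3, the third being HSPA8. SQSTM1 had -0.58 (adjusted p = 0.0023), and NBR1, also an autophagy receptor, had -0.50 (adjusted p = 0.01). The interaction of NBR1 did not pass without replicate B of untreated mutp53-depleted cells (adjusted p = 0.07).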

How the results depend on the processing

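The 6 members higher after depletion at the adjusted p alone ranged from 5 to 7 over the alternatives at 0 h and from 6 to 8 at 16 h. The heat-inducible targets without HSPA6 ranged from 15 to 19 at 0 h and from 16 to 20 at 16 h. The log2 change of HSPB8 at 16 h lay between -6.55 and -4.03, with the pseudocount and the count models moving it most.

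Removing the neighbouring genes' shift called 2 members at 16 h and 1 in the interaction, left 0 lower at the adjusted p alone at 0 h, and reversed HSPB1 at 0 h to 0.26. It also made HSPB1 and HSF1 higher at 16 h, and BAG3 with TNF-α in mutp53-depleted cells (3 members higher there). edgeR and DESeq2 each called 1 member in the interaction and found 1 higher with TNF-α in control cells, as did median ratio scaling for the latter. DESeq2 left 0 lower with TNF-α in mutp53-depleted cells. With the replicate letter as a block, 1 member was called in the interaction, and with TNF-α in control cells 1 was higher and 2 lower, HSPB1 and DNAJB1 (-0.20, adjusted p = 0.023). No source ties the letters to a shared culture or day. Deviations from group means correlated between -0.08 and 0.22 across the 6 pairs of groups, above 0.1 in 3, and replicate A was deeper than B in all 4 groups. The cause of these shifts was not tested.

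Leaving out each library in turn gave 0 to 1 members called at 0 h and 0 to 2 at 16 h. At the adjusted p alone it gave 0 to 1 lower at 0 h, 0 to 1 higher with TNF-α in control cells, and 1 to 2 higher and 0 to 1 lower with TNF-α in mutp53-depleted cells. A group then has a lone library, assumed to vary like the other groups. With 2 libraries a group, and 2 to 9 reads of HSPB8 in 3 of the groups, its ratios among those groups are limited by depth. Protein identity was not run.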
